A study of Mus musculus with 95 samples.

Results

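The cytosolic ribosomal protein genes were described across 95 bulk RNA-seq libraries of mouse blood stem and progenitor cells. Members were the gene entries whose symbol was Rpl or Rps, then a number, then at most one of the letters a, l, x or y, together with Rplp0, Rplp1, Rplp2 and Rpsa. The rule found 83 members, 51 of the large and 32 of the small subunit, among 53465 gene entries. It took no measured value into account. The libraries came from marrow of B6.SJL mice of 8 to 12 weeks, enriched for cKit and sorted as haematopoietic stem cells (HSC) or as the progenitor populations HPC-1 and HPC-2. Steady-state cells of untreated mice gave 8 HSC, 8 HPC-1 and 7 HPC-2 libraries. The other 72 libraries were made 3, 4, 5, 6, 8, 10, 13 or 16 weeks after 8000 LSK cells (a marrow fraction holding stem and early progenitor cells) were transplanted into recipients irradiated with 900 cGy. Each population had 3 libraries a week. Transplanted groups therefore share irradiation of the host, transfer of the cells and the time since, which cannot be told apart here.

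Cytosolic ribosomal proteins form, with the ribosomal RNAs, the large and the small subunit that together translate messenger RNA. Their messenger RNAs belong to the most abundant in a cell, are short, and mostly begin with a run of pyrimidines, the 5′ terminal oligopyrimidine (TOP) tract, through which mTOR signalling controls their translation. Blood cells are sensitive to a shortage of single members: Diamond-Blackfan anaemia follows from the loss of 1 copy of genes such as Rps19, and 5q- syndrome from that of RPS14. HSC are known for a low rate of protein synthesis. RNA counts do not measure translation.

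Bases around the RefSeq transcription starts showed the TOP feature on GRCm38.p6. The longest run of C and T on the gene strand was searched from 15 bases before to 20 bases after each start, within promoters of 300 bases. A run of at least 7 pyrimidines stood in 38 of the 73 member promoters found (61 genes), 52.1%, against 21.2% of all 32851 promoters of the table. The motif CTTTCC, read on the gene strand in the same bases, was in 13.7% of member and 1.66% of all promoters. Matches describe these letters and are not mapped starts. The windows of 30 bases below run 5′ to 3′ on the gene strand, with the longest run of each in capitals as far as it lies in the window. Rpl7a, Rpl35 and Rpl15 are shown for long runs, Rpl4, Rps27 and Rps9 because results below turn on them, and Rpl41 and Rps4x because the window holds only a short run. They stand at chr2:26910792-26910821 (plus strand), chr2:39005117-39005146 (minus), chr14:18270972-18271001 (minus), chr9:64173372-64173401 (plus), chr3:90213634-90213663 (minus), chr7:3704026-3704055 (plus), chr10:128549154-128549183 (minus) and chrX:102189377-102189406 (minus), in the order printed.
Rpl7a: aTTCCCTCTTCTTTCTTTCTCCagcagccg
Rpl35: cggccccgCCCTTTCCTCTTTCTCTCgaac
Rpl15: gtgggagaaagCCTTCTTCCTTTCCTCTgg
Rpl4: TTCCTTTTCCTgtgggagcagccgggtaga
Rps27: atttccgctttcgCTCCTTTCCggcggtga
Rps9: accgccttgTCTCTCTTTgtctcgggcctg
Rpl41: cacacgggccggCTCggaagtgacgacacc
Rps4x: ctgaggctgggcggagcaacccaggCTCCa
The length of the run was not related to how much a member varied between libraries, as a description over 56 members with a start (Spearman's rho 0.10 with the standard deviation of log2 levels).

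Library quality varied and some labels were in doubt, which bears on the results below. Total counts were 3551908 to 8492759 (median 5628592) and 3827 to 15697 genes were detected (median 12943), with fewer than 10000 in 12 libraries. In 6 pairs of libraries with different labels the counts were nearly identical (chi-square per degree of freedom 1.24 to 4.50, against 15.1 or more in all others of the 4465 pairs). These 12 libraries include HSC steady-state replicate 1, HPC-1 replicate 7 and HPC-2 replicates 5 and 7. Each call on the members is therefore given with and without them where they change it. In their whole expression profile 5 HSC libraries, among them all 3 of week 3, were nearest to HPC-2, and 5 of 31 HPC-2 libraries were nearest to another population. The labels give the HSC gate for all 3 populations, but marker genes differed between them at steady state. Mean Cd48 was 17.7 CPM in HSC, 1118 in HPC-1 and 565 in HPC-2. Fgd5 was 0 in all 7 HPC-2 libraries, of which 4 had fewer than 10000 genes. Of the 9 HSC marker genes read, all but Ly6a had their highest mean in HSC. Ly6a had 335, 338 and 399 CPM in HSC, HPC-1 and HPC-2. Slamf1 had 68.4, 0.63 and 26.7 CPM, with counts in 4 of 7 HPC-2 libraries. Neutrophil markers (5 genes summed) ran from 0 to 6078 CPM in steady-state HSC, with a median of 2684, against 0 to 4084 (median 55.6) in HPC-1 and 0 to 7515 (median 15.1) in HPC-2. In transplanted HSC they ran from 0 to 9875 CPM, with a median of 444.8. Their part in the results was not tested.

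Levels are given as CPM, a gene's counts relative to all counts of its library. Of the 83 members, 77 had counts in all 95 libraries. The most abundant was Rplp0, the scaffold of the ribosomal stalk that recruits translation factors, with a mean of 2145 CPM. It was followed by Rps14, the gene lost in 5q- syndrome, with 1997 CPM, and Rpl4, a large-subunit protein lining the exit tunnel, with 1882 CPM. Per kilobase of transcript Rps14 came first, with 3345 CPM per kb, then Rpl32 with 2955 and Rps18 with 2625. The lowest members were the tissue paralogs Rpl10l, Rpl3l and Rpl39l and the entries Rpl6l, Rpl32l and Rps4l, which have no coding transcript in GENCODE M21. Transcripts of unequal annotated length affect this scale, for example Rps20 with 3706 bases. The order of the 83 members by mean CPM was nearly the same in the 6 sets of population and condition (Spearman's rho 0.954 to 0.993), a description over members that share libraries.

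Within the stalk, Rplp1 and Rplp2, the acidic partners of Rplp0, had 298.6 to 1163 and 280.7 to 941.9 CPM in transplanted HPC-1, wider relative ranges than Rplp0 with 1569 to 2555 CPM in the same 24 libraries. Rpl5 and Rpl11 carry the 5S RNA and, when ribosome assembly fails, bind Mdm2. Rpl5 stood at 772.9 (lowest), 1129 (median) and 1707 (highest) CPM in steady-state HSC and at 507.4, 891.1 and 1105 in HPC-2. Rpl11 stood at 340.6, 674.3 and 1050 in HSC and at 140.8, 525.8 and 706.1 in HPC-2. The ranges of both genes overlap between the populations.

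Among the members tied to Diamond-Blackfan anaemia, Rps19, a small-subunit protein needed for 18S RNA maturation, had 928.4, 1631 and 3257 CPM in steady-state HSC, 1099, 1806 and 2331 in HPC-1 and 539.5, 1122 and 1763 in HPC-2. Rps26, at the exit of the messenger RNA channel, was lower, with medians of 376.9, 430.4 and 255.5 CPM. Rps10, near the messenger RNA entry, had an HPC-2 median of 294.3 CPM against 467.2 in HSC. All of these ranges overlap.

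Rps6, the substrate of S6 kinase, had medians of 1227 CPM in HSC, 1237 in HPC-1 and 905.7 in HPC-2 at steady state, and of 1183, 1084 and 1069 after transplant. Rpl22, needed in developing lymphocytes, had steady-state medians of 379 (HSC), 376.6 (HPC-1) and 226 CPM (HPC-2), but 931.4 CPM in HPC-2 replicate 1, the library with the fewest detected genes. Rpl38, Rpl10a and Rps25, members studied for selective translation, had HSC medians of 445.1, 650.6 and 745.4 CPM. Rpsa, which also serves as a laminin receptor, had 834.8, 1060 and 1696 CPM in HSC, and Rps27a, made as a fusion with ubiquitin, 376.8, 899.1 and 1753. The range of Rps27a was the wider one.

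The 83 members together took 2.82 to 10.1% of a library's counts, with a median of 6.33%. At steady state the share was 6.88% ± 2.09 (SD, n = 8) in HSC, 7.06% ± 1.40 (n = 8) in HPC-1 and 4.76% ± 1.29 (n = 7) in HPC-2. After transplant it was 6.74% ± 1.80 in HSC, 6.02% ± 1.64 in HPC-1 and 5.88% ± 1.87 in HPC-2 (n = 24 each). All 6 ranges overlap. Without the near-identical libraries the steady-state values were 7.27% ± 1.92 (n = 7), 7.16% ± 1.48 (n = 7) and 4.21% ± 1.04 (n = 5). HPC-2 then ran from 2.82 to 5.46%, HSC from 4.95 to 9.51% and HPC-1 from 4.51 to 8.99%. In bulk RNA, fewer cells of a type and less RNA per cell cannot be told apart.

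The share of HSC moved from week to week more than its average did. At 3 weeks the 3 HSC libraries had 3.18, 4.30 and 4.49%, of which 1 lay below the steady-state range of 4.12 to 9.51% and the other two near its lower end. At 16 weeks they had 7.99, 8.83 and 10.1%, the last of which lay above that range. HPC-2 showed another course. Its 5-week libraries, with 6.75, 7.23 and 7.41%, all lay above the highest steady-state HPC-2 library (6.53%), while those of 13 weeks had 3.04, 3.49 and 3.68% and those of 16 weeks 3.38, 3.93 and 4.79%. Of these, 5-week replicate 2 (7.41%) and 13-week replicate 1 (3.68%) belong to near-identical pairs. HPC-1 libraries of a week were spread widely, for example 3.52, 7.15 and 8.77% at 5 weeks.

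**Figure D1:**
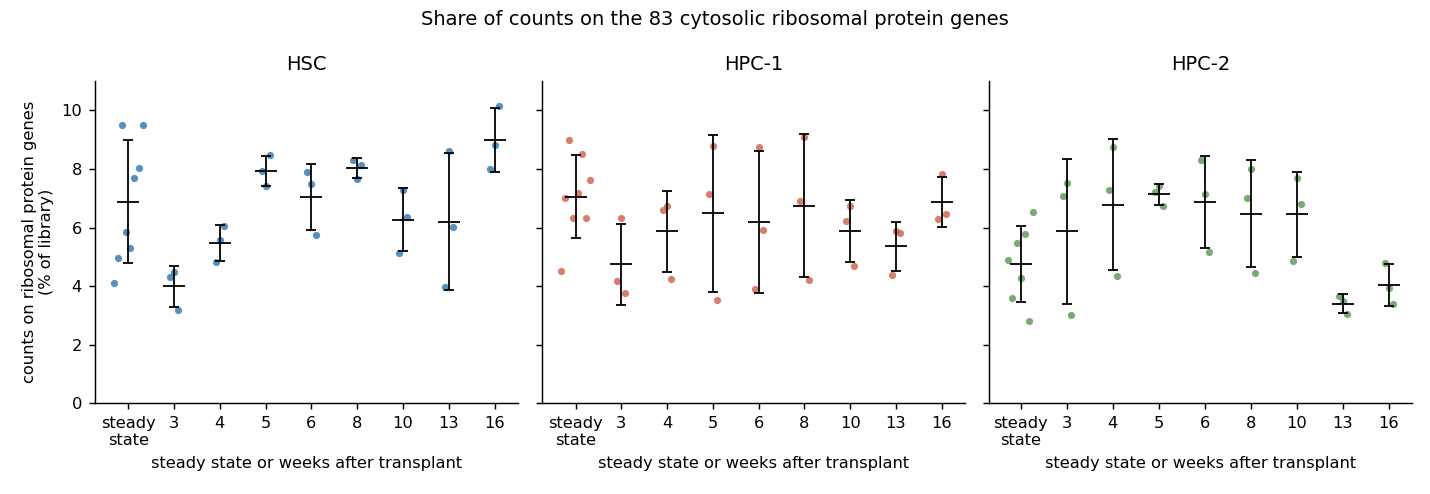
Share of a library's counts held by the 83 cytosolic ribosomal protein genes (y axis, percent) at steady state and each week after transplant (x axis), by population; points are libraries, and bars show the mean and SD. HSC at 3 weeks lie at 3.18 to 4.49% and at 16 weeks at 7.99 to 10.1%, and HPC-2 at 13 weeks at 3.04 to 3.68%.

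Across the 95 libraries the share had little relation to the number of detected genes (Pearson's r 0.10, Spearman's rho 0.07, r 0.05 without the 2 libraries farthest from the median). Within the 6 sets r ran from -0.38 in transplanted HSC to 0.50 in transplanted HPC-2, so that the pooled value joins sets of unlike sign. Without the 2 farthest libraries of each set these 2 values were -0.13 and 0.51. The steady-state values also moved, from -0.33 to -0.69 in HSC, 0.22 to 0.52 in HPC-1 and 0.42 to 0.27 in HPC-2. HPC-2 libraries under 10000 genes had 3.68 to 4.79% after transplant, whereas the 2 such HSC libraries had 8.62 and 10.1%. Total counts went the other way from the share (r -0.54, rho -0.50, r -0.50 without the 2 farthest). These and the following correlations describe libraries that share groups and preparation and carry no p-value.

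The share followed several other features of a library much more closely. One is the share of counts in the 3617 other coding genes whose transcript is at most 1000 bases long, here called short genes (r 0.92, rho 0.92, r 0.92 without the 2 farthest, and 0.81 to 0.94 within the 6 sets). Another is the share of mitochondrial counts (r 0.91, rho 0.93, r 0.90 without the 2 farthest). Within the 6 sets its r was 0.82 to 0.96. In steady-state HPC-1 it fell from 0.82 to 0.43 without the 2 farthest. For the share of mitochondrial ribosomal protein genes r was 0.81, and for that of the 10 genes with most counts 0.86. Counts in the 288 pseudogene entries named after a ribosomal protein gene followed the members too (r 0.96, rho 0.98, r 0.96 without the 2 farthest). Per 100 counts of short genes, the members had 29.3 to 49.2 counts, and the means of the 6 sets lay between 35.0 and 39.6. At 3 weeks HSC had 33.1 ± 0.88 member counts per 100 short-gene counts and at 16 weeks 41.4 ± 4.71 (n = 3 each), against 39.6 ± 4.99 (n = 8) at steady state. The low share at 3 weeks was thus accompanied by a low short-gene share (9.76 to 13.8%, against 11.1 to 22.5% at steady state).

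**Figure D2:**
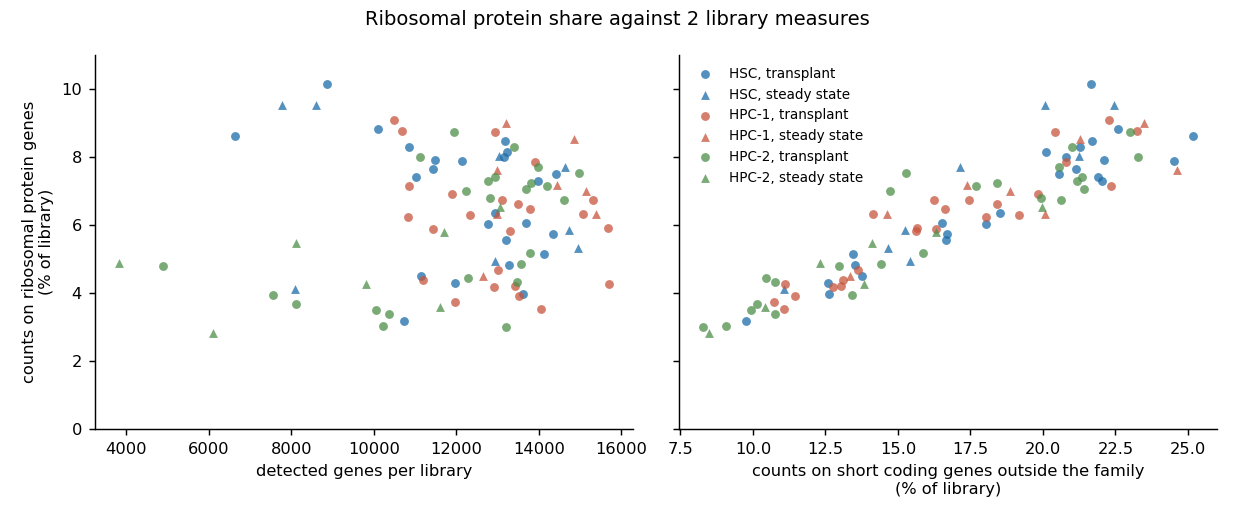
Share of counts in the 83 cytosolic ribosomal protein genes (y axes, percent) against the number of detected genes and against the share of counts in other short coding genes (x axes); each point is 1 of 95 libraries, by population and condition. The first relation is weak (r 0.10) and the second close (r 0.92).

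Nearly all members moved together from library to library. The correlation of a member's log2 CPM with the log2 sum of the other members had a median of 0.93 and was over 0.8 for 65 of the 77 members with counts throughout, but it was 0.25 for Rpl4 and -0.13 for Rpl3, a large-subunit protein near the peptidyl transferase centre. These correlations describe 95 libraries that share groups and preparation. The median SD of log2 CPM over the libraries was 0.56, and that of a member's log2 share of the member counts was 0.22.

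Members with a longer coding sequence tended to vary less. Rpl4, with 1257 coding bases, had an SD of log2 CPM of 0.19, Rplp0 (951 bases) 0.26, Rps14 (453) 0.76, Rps27 (252) 0.89 and Rpl39 (153) 1.07. The last value includes a library at 3.33 CPM, HPC-2 steady-state replicate 6, below the next at 76.7 CPM. Over 76 members Spearman's rho of SD with coding length was -0.75, with transcript length -0.57, with mean CPM -0.43 and with the share of 50-base words found in other entries -0.05. For each doubling of the short-gene share, Rpl39 was higher by 2.16 and Rps27 by 1.97 on the log2 CPM scale, Rplp0 by 0.53 and Rpl4 by 0.04, and Rpl3 stood at -0.25.

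In their SD, other abundant coding genes (at least 100 CPM) did not show this order of variation. The median SD of log2 CPM was 0.62 for 10 members and 0.69 for 83 other genes up to 300 coding bases, and 0.62 for 27 members and 0.63 for 120 other genes above 300 and up to 450 bases. Above 450 and up to 600 bases it was 0.51 for 19 members and 0.54 for 107 other genes. In the next class, up to 900 bases, it was 0.38 for 17 members and 0.58 for 152 other genes, and up to 1500 bases 0.26 for 3 members and 0.79 for 151 other genes. Members and other genes thus lay close together among the short genes, and among the longer ones the members had the lower SD. The median change for each doubling of the short-gene share, however, tended to fall with length in both. From the shortest to the longest of these classes it was 1.39, 1.39, 1.12, 0.78 and 0.04 for members. For other genes, some of which count toward the short-gene share themselves, it was 1.52, 1.04, 0.34, -0.02 and -0.47. Whether the length relation arises in the cells or in library preparation was not tested.

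**Figure D3:**
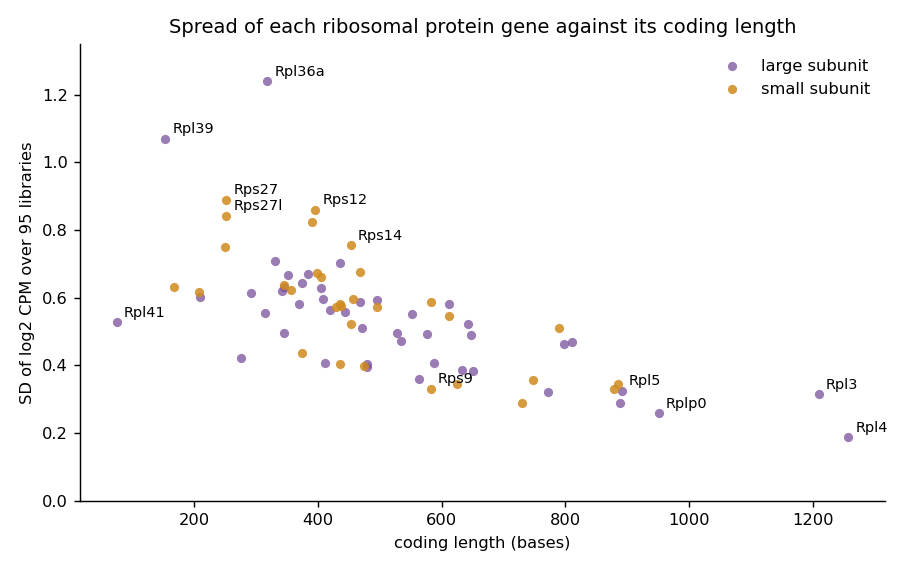
SD of log2 CPM over 95 libraries (y axis) against coding length in bases (x axis) for members with counts in every library. Long members such as Rpl4 (0.19) vary little and most short ones vary more, such as Rps27 (0.89), while the shortest, Rpl41, has 0.53. The value of Rpl36a (1.24) includes a library at 0.37 CPM.

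Transplanted and steady-state cells were compared within each population by the edgeR quasi-likelihood test over all expressed genes, with Benjamini-Hochberg adjustment over all of them. A gene is called at an adjusted p below 0.05, and changes are log2 differences with their standard error (SE). Counts of members with an unadjusted p under 0.05, here and below, are given without the share of all genes under that rule. Members also move together from library to library, so these counts are no test of the family. In HSC, averaged over the 8 weeks, 1 of 81 tested members was called, Rpl29, against 5.31% of all 14209 genes, of which 0.0985% were called higher. The members' median change was -0.03, against -0.39 for all genes, and 3 members had an unadjusted p under 0.05. In HPC-1 none of 81 members was called by edgeR, DESeq2 or limma voom (16 had an unadjusted p under 0.05), against 1.39% of all genes, with medians of -0.37 and -0.18. In HPC-2 none of 80 was called by edgeR, DESeq2 or voom (2 unadjusted), against 1.15% of all genes, with medians of 0.40 and 0.00. The difference of the HSC average from that of HPC-1 or HPC-2, tested directly in a fit of all libraries, was called for none of 82 members by edgeR (3 unadjusted each; DESeq2 called 0 and 3, the latter against 7.92% of genes, voom 0 and 0). The background was 0.00609% against HPC-1 and 0% against HPC-2.

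Rpl29, a large-subunit protein whose gene lies at chr9:106429454-106431568 on the plus strand of GRCm38, rose in HSC after transplant by 0.51 (SE 0.15, adjusted p = 0.0419, edgeR). The 8 steady-state libraries had 246.2 to 362.8 CPM, with a median of 350.4, and the 24 transplanted ones 266.8 to 716.1, with a median of 465.8. The groups overlap, and the 3-week libraries (310.6, 355.6 and 266.8 CPM) lay within the steady-state range. The call was lost in 13 of 15 other settings (adjusted p 0.056 to 0.918 there). It was also lost when 1 of 10 single libraries was left out: any steady-state library but replicate 2, or replicate 2 of week 3, 3 of week 4 or 3 of week 10. Rpl29 shares 50-base words with 75 other entries, whose pseudogenes held 47.3 CPM on average. In HPC-1 its medians were 431.7 CPM before and 437.1 after transplant.

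Week by week, no member was called by edgeR in any of the 24 comparisons with steady state, in which 0 to 0.0521% of all genes were called: 0.00704, 0.0141 and 0.0211% in HSC at 4, 5 and 6 weeks, 0.0292 and 0.00729% in HPC-1 at 3 and 5 weeks, 0.0521% in HPC-2 at 16 weeks and 0% in the others. Between 0 and 69 members had an unadjusted p under 0.05. DESeq2 called up to 21 and voom up to 27 members in a week. At 3 weeks in HSC the members' median was -0.96, against -0.25 for all genes, and 69 of 81 had an unadjusted p under 0.05. The smallest p belonged to Rps27, a zinc-finger protein of the small subunit, with -1.99 (SE 0.50, adjusted p = 0.221, edgeR), and to Rps19 with -1.31 (SE 0.34, adjusted p = 0.221). The 3 libraries had 256.4, 243.7 and 167.8 CPM of Rps27, all below the steady-state libraries, of which the lowest was replicate 1 with 280.1 and the next had 380.9. For 16 of the 83 members all 3 libraries lay below the steady-state range, against 1.06% of the 14209 genes tested, and for 72 below its median, against 22.6% of these genes.

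This comparison turned on HSC steady-state replicate 1, a library nearly identical to one labelled HPC-2 at 13 weeks. Without it, edgeR called 25 of 81 members lower at 3 weeks, against 0.67% of 14174 genes called and 0.635% called lower, with a median of -1.10. The call with the smallest p was Rpl7, a large-subunit protein, which fell by 1.00 (SE 0.18, adjusted p = 0.0105, edgeR): its libraries had 958.2, 1035 and 697 CPM, and the 7 remaining steady-state libraries 1194 to 1914. Rpl13 fell by 0.92 (SE 0.18) and Rps4x, encoded on the X chromosome, by 1.13 (SE 0.23). With all libraries, DESeq2 called 21 members lower, against 5.05% of genes, and voom 8, against 5.33%. Leaving out libraries under 10000 genes gave 13, against 0.974%. With the short-gene share as a covariate no member was called by edgeR (13 unadjusted) and the median was -0.22. A block for sets of 12 consecutive numbers in the sample descriptions sets these libraries against HSC steady-state replicate 1 alone, with a median of 0.10 and no call by edgeR (5 unadjusted). All 3 HSC libraries of 3 weeks were nearest to HPC-2 in their whole profile. What part the short-gene share or the labels have in the lower level was not tested.

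In later weeks of HSC the median of the members was above that of all genes at 5, 6, 8 and 16 weeks: 0.35 against -0.27, 0.19 against -0.10, 0.35 against -0.22 and 0.54 against -0.44. Voom called 27 members higher at 5 weeks, 10 at 8 weeks and 3 at 16 weeks, against 4.86, 2.2 and 0.373% of genes, where edgeR called none (5, 4 and 21 unadjusted) and DESeq2 none. In HPC-1 the lowest median was at 3 weeks, -0.90 against -0.08 (52 of 81 unadjusted), where DESeq2 and voom called 2 members each, Rps19 in both, against 2.56 and 4.29% of genes. In HPC-2 the median was 0.89 at 5 weeks, against 0.20 for all genes, with 58 of 80 unadjusted. It was -0.61 at 13 weeks, against -0.14, and -0.39 at 16 weeks, against -0.42. For 32 of the 83 members all 3 HPC-2 libraries of 5 weeks lay above the steady-state range of 7 libraries, against 4.12% of the 13436 genes tested.

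**Figure D4:**
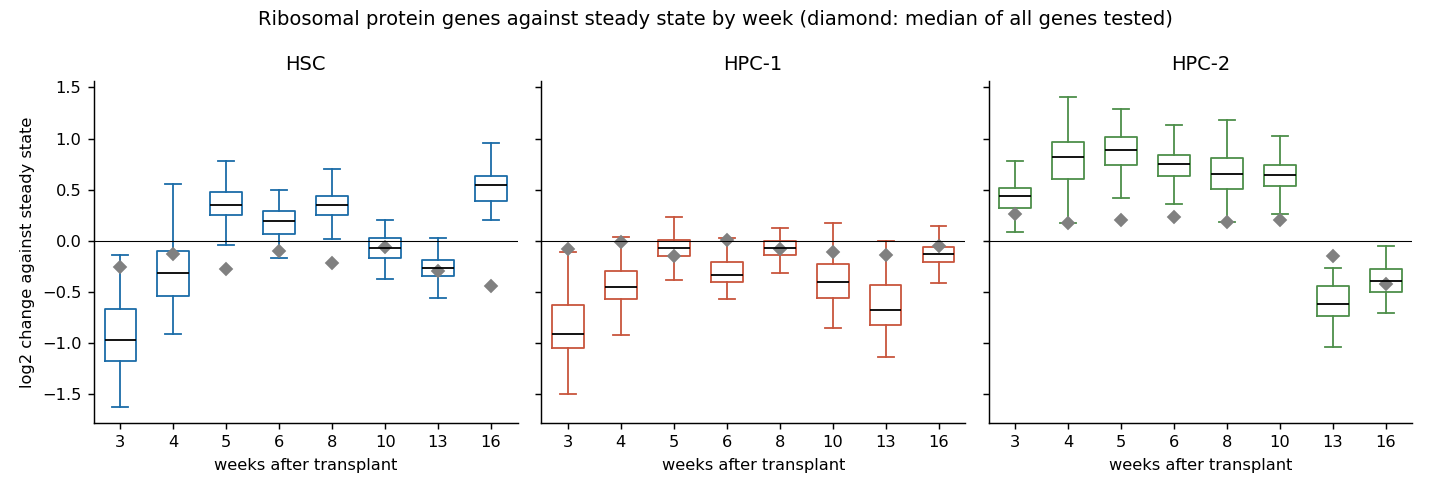
Log2 change of the tested cytosolic ribosomal protein genes against steady state (y axis) at each week (x axis), by population; boxes show quartiles, whiskers reach 1.5 times the interquartile range, outliers are not drawn, and diamonds mark the median of all genes tested. The HSC box lies lowest at 3 weeks (median -0.96) and highest at 16 weeks (0.54).

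With the weeks as a trend over the transplanted libraries, the members' median slope for each doubling of time was 0.35 in HSC, 0.09 in HPC-1 and -0.53 in HPC-2, against -0.04, -0.01 and -0.15 for all genes. EdgeR called none of 80, 79 and 79 members, and 0.00869, 0.0435 and 0.0178% of all genes. Unadjusted p was under 0.05 for 56, 0 and 76 members. DESeq2 called 4 members in HSC, against 1.67% of genes, and none in the others, and voom none in any. In HSC Rps19 had a slope of 0.47 (SE 0.14, adjusted p = 0.285, edgeR). In HPC-2 the smallest p belonged to Rps2 (-0.49, SE 0.12, adjusted p = 0.180) and Rplp0 (-0.43, SE 0.12, adjusted p = 0.286). The short-gene share moved as well. In HSC it was 9.76 to 13.8% at 3 and 20.8 to 22.6% at 16 weeks. In HPC-2 it was 8.29 to 21.4% at 3 and 18.4 to 21.3% at 5 weeks. Later it was 9.07 to 10.1% at 13 and 10.7 to 13.4% at 16 weeks. HPC-2 replicate 1 of week 13 and replicates 1 and 2 of week 16 had 8105, 4903 and 7563 detected genes. What part these features have in the slopes was not tested.

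At steady state, with all 23 libraries, edgeR called no member between populations. The background was 0.573% of 11348 genes for HSC against HPC-1, 1.33% for HSC against HPC-2 and 0.0264% for HPC-1 against HPC-2. The members' medians were -0.08, 0.66 and 0.74, against 0.08, 0.23 and 0.22 for all genes, and 0, 42 and 55 of 79 members had an unadjusted p under 0.05. DESeq2 called 0, 0 and 0 members and voom 4, against 8.95% of genes, 0 and 0. The smallest p for HSC against HPC-2 belonged to Rps14 (1.21, SE 0.36, adjusted p = 0.0994). Leaving out HPC-2 replicate 7 alone gave 5 calls for HSC against HPC-2, where 5.05% of all genes were called, and 13 for HPC-1, where 5.25% were.

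Without the 4 steady-state libraries of near-identical pairs, members were called in both comparisons with HPC-2. This left out the HPC-2 libraries with the highest member share, replicates 5 (5.78%) and 7 (6.53%). It also left out the HSC library with the lowest, replicate 1 (4.12%), and HPC-1 replicate 7 (6.33%). In their whole profile these HPC-2 libraries were nearest to HPC-1, and HSC replicate 1 to HPC-2. In HSC, 40 of 79 members were higher than in HPC-2 and none lower, against 13.2% of 11938 genes called and 12.1% called higher, with medians of 1.04 and 0.47. In HPC-1, 46 were higher and none lower, against 12.9 and 12.2%, with medians of 1.07 and 0.41. HSC against HPC-1 gave no call among the members by edgeR (0 unadjusted), against 0.997%, with a median of -0.02.

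Rps14 was higher in HSC than in HPC-2 by 1.80 (SE 0.38, adjusted p = 0.00667, edgeR) and higher in HPC-1 by 1.68 (SE 0.38, adjusted p = 0.0084). Its 5 HPC-2 libraries had 552.3 to 1233 CPM, the 7 HSC libraries 1444 to 4654 and the 7 HPC-1 libraries 1151 to 3752. HSC and HPC-2 did not overlap. Rpl32, a large-subunit protein, had 483.5 to 1153 CPM in HPC-2, 1192 to 2746 in HSC (1.31, SE 0.29) and 970.7 to 2524 in HPC-1 (1.36, SE 0.29). Rpl7 stood at 350.5 to 1197 CPM in HPC-2 and 1194 to 1914 in HSC (1.17, SE 0.27), with ranges that just overlap. Rps27 had 92.27 to 403.1 CPM in HPC-2 and 380.9 to 1635 in HSC (1.93, SE 0.45, adjusted p = 0.0101).

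Against HPC-1, Rpl10, an X-linked large-subunit protein that joins the subunit late, stood out with 382 to 763.2 CPM in HPC-2 and 682.4 to 1446 in HPC-1 (1.27, SE 0.27, adjusted p = 0.00661, edgeR). Rpl41, the shortest member, had 360.6 to 627.7 and 596.5 to 1284 CPM (1.26, SE 0.28). Rpl4 did not follow: its levels were 1665 to 2121 CPM in HPC-2, 1531 to 2718 in HSC and 1326 to 2336 in HPC-1. Rplp0 had 1226 to 2278 CPM in HPC-2 and 1918 to 3181 in HSC. Rpl4 and Rplp0 were chosen for this after their values were seen.

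The following counts divide the 40 and 46 of 79 members called, against 12.1 and 12.2% of all genes called higher. By subunit, 22 of 47 large and 18 of 32 small members were higher in HSC than in HPC-2, and 23 of 47 and 23 of 32 higher in HPC-1. Of the 10 genes tied to Diamond-Blackfan anaemia or 5q- syndrome, 7 were higher in each comparison. The stalk had 1 of 3 called in each, and the 5S-binding pair 1 of 2 for HSC and 0 of 2 for HPC-1. By coding length, 21 of 37 members up to 450 bases, 16 of 29 above 450 and up to 750 and 3 of 11 longer ones were called for HSC, with medians of 1.31, 0.91 and 0.42. For HPC-1 it was 27, 17 and 2, with medians of 1.29, 0.91 and 0.51. Shorter members therefore had the larger differences.

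Of the 5 remaining HPC-2 libraries, 4 had fewer than 10000 detected genes, and their short-gene share was 8.48 to 14.1%, against 14.7 to 22.5% in HSC and 13.3 to 24.6% in HPC-1. With the short-gene share as a covariate edgeR called no member in either comparison (medians 0.25 and 0.20), against 7.59 and 7.44% of all genes. With the number of detected genes as a covariate 36 and 22 were called, against 6.82 and 3.84%. Leaving out libraries under 10000 genes as well left 1 HPC-2 library, assumed to vary like the other groups. EdgeR then called no member, while the medians were 0.98 for HSC, with 79 of 82 members positive, and 1.40 for HPC-1, with 81 of 82.

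**Figure D5:**
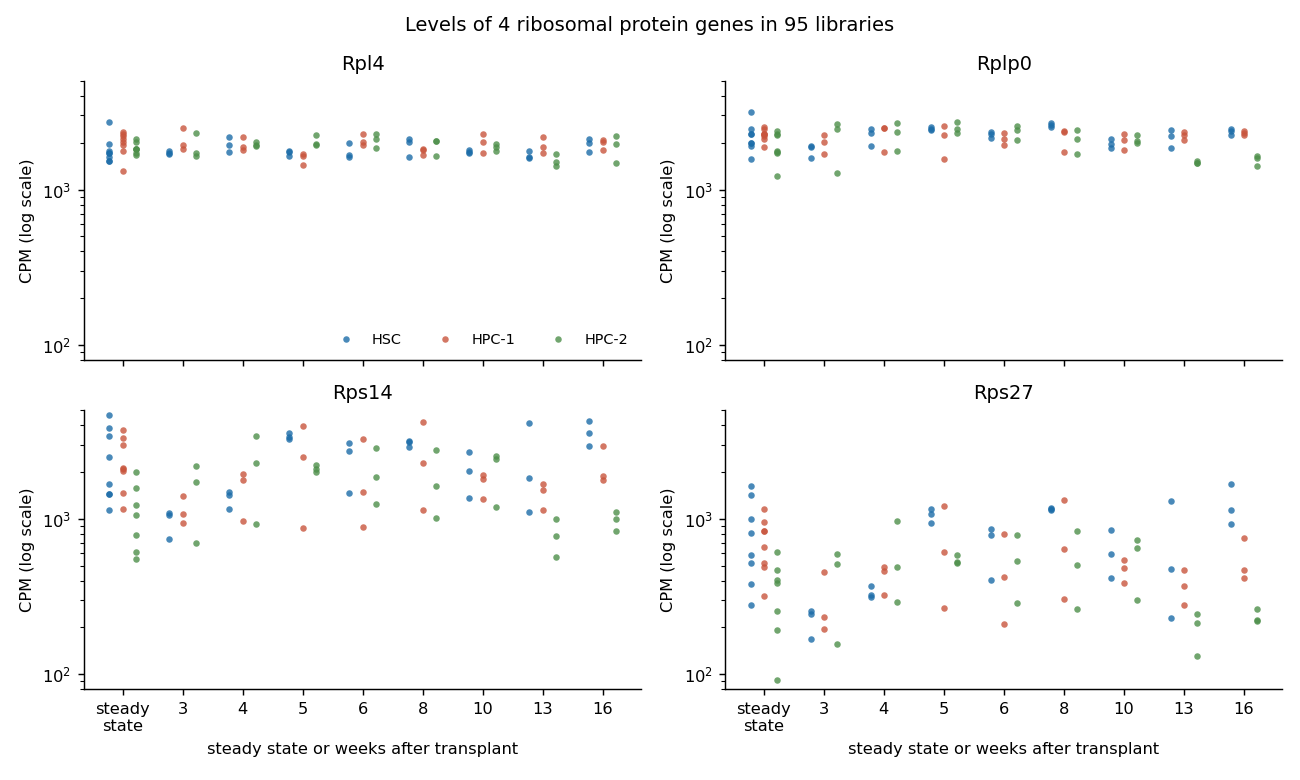
CPM (y axis, log scale) of Rpl4, Rplp0, Rps14 and Rps27 in the 95 libraries, by population at steady state and after transplant (x axis). Rpl4 keeps within 1326 to 2718 CPM, whereas Rps27 runs from 92.27 to 1675 CPM.

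After transplant, populations were compared at matched weeks in a fit of all 95 libraries. HSC had 2 of 82 members higher than HPC-2 and none lower, against 5.39% of 16410 genes called and 3.52% called higher, with medians of 0.28 and 0.03. An unadjusted p under 0.05 was found for 27 members. Rps27 (chr3:90212522-90213651, minus strand) was higher by 0.68 (SE 0.22, adjusted p = 0.0434, edgeR), with 167.8, 822.3 and 1675 CPM (lowest, median, highest) in 24 HSC libraries and 131.5, 498.5 and 962.1 in 24 HPC-2 libraries. Rps4l, an entry without a coding transcript, was higher by 1.93 (SE 0.61, adjusted p = 0.044), with medians of 50.4 and 23.18 CPM. Both pairs of ranges overlap. Rps27 kept its call in 11 of 14 other settings. It lost it with the short-gene share as a covariate, where the difference was 0.20 (adjusted p = 0.489, edgeR), without libraries under 10000 genes and without those of doubtful label. Rps4l kept its call in 4 of 14. With the short-gene share as a covariate the 1 member called was Rpsa, which was lower in HSC (-0.31, SE 0.08, adjusted p = 0.0233, edgeR), against 3.61% of genes. Rpsa was also called lower by DESeq2 (-0.29, adjusted p = 0.00151), against 21.8% of genes, with RLE scaling (-0.29, adjusted p = 0.0103) and with scaling to the members' own counts (-0.41, adjusted p = 0.00117), but stood at -0.14 (SE 0.11, adjusted p = 0.693, edgeR) in the comparison as designed.

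HSC against HPC-1 after transplant gave no call among 82 members by edgeR (3 unadjusted), against 6.01% of genes, while DESeq2 called 7, against 17.1%, and voom 2, against 23.2%, with medians of 0.16 and -0.18. HPC-1 against HPC-2 gave none (2 unadjusted), against 5.94%, while DESeq2 called 3, against 17.2%, and voom 0, with medians of 0.12 and 0.15. The genes with the smallest p were Rpl3 (-0.21, SE 0.09, adjusted p = 0.213) for HSC against HPC-1 and Rps9 (0.23, SE 0.11, adjusted p = 0.288) for HPC-1 against HPC-2.

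Each library was also scaled to the members' own counts, so that a value is a difference relative to the family. HSC against HPC-1 after transplant then had 6 of 82 members called, a share close to the 7.01% of all genes. Rpl10 was lower by 0.29 on this scale (log2 change -0.29, SE 0.06, adjusted p = 0.00112, edgeR), and so were Rps25 (-0.27), Rps9 (-0.22) and Rpsa (-0.29), while Rps16 (0.19) and Rps7 (0.16) were higher. Without this scaling none of the 6 was called, and Rpl10 stood at -0.17 (SE 0.14). Rpl10, Rps25, Rps9 and Rpsa were also called lower with the short-gene share as a covariate, against 5.5% of genes, as was Rps19 (-0.16), and Rps16 and Rps7 were not. Rpl10 had medians of 922.2 CPM in HSC and 999.7 in HPC-1 after transplant, and Rpsa 966.4 and 1164. The ranges of both genes overlap. Rpl10 shares 92.1% of its 50-base words with other entries.

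Tissue paralogs were nearly silent. Rpl10l, the testis copy of Rpl10, had no count in any library. Rpl3l, the muscle copy of Rpl3, was at 0 in 83 libraries and reached at most 8.94 CPM, while Rpl3 had a mean of 895.5 CPM. Rpl39l, a copy of Rpl39, was at 0 in 73 libraries and had 45.3 CPM in HSC at 16 weeks replicate 2 and 40.3 CPM in HPC-1 at 8 weeks replicate 2, above at most 10.6 CPM elsewhere. Rps27l, a p53 target in mouse and human cells, was by contrast as abundant as its parent: 839.7 CPM against 586.9 for Rps27, and 1683 against 1701 CPM per kb. Rpl13a had a mean of 40.6 CPM, well under other members of its length, and was at 0 in HSC steady-state replicate 3 and 0.22 CPM in replicate 8.

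Reads of these genes are hard to place. Of the 83 members, 79 share a word of 50 bases with another gene entry, 51 share at least 50% of their words and 5 at least 90%, with a median of 55.5%. The 1009 pseudogene entries sharing such words held 0.0488 to 0.304% of a library's counts. How reads with several matches were counted is not given in the sources used here, so the level of a member with a high shared percentage, such as Rps27 with 98.6%, is uncertain. Rpl4, with 16.5%, is less exposed.

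Genes of the same machinery outside the family were read in the same fits. Among 22 translation factors and other TOP genes, HSC had 1 higher and 2 lower than HPC-2 after transplant, against 5.39% of all genes called. Eef2, the elongation factor that moves the ribosome along, was lower (-0.94, SE 0.22, adjusted p = 0.00285, edgeR), as was Hnrnpa1 (-0.41, SE 0.13), and Eif4a2, a helicase of initiation, was higher (0.89, SE 0.28). Of 13 genes of the mTOR and S6 kinase arm, Rptor, the mTOR complex 1 scaffold, was lower (-2.60, SE 0.78, adjusted p = 0.0319). Eef1a1, which brings transfer RNA to the ribosome, was higher in HPC-1 than in HPC-2 (0.25, SE 0.08, adjusted p = 0.0314, edgeR), against 5.94% of genes. Of 8 ribosome partners outside the rule, Rpl22l1, the paralog of Rpl22, was higher (1.08, SE 0.30, adjusted p = 0.0185) in HSC than in HPC-2. The median of the 77 tested mitochondrial ribosomal protein genes was 0.09 in that comparison, against 0.28 for the members. In the averages of transplanted against steady-state cells none of these 4 lists had a called gene in any population. In HSC at 3 weeks, where the members' median was -0.96, the mitochondrial ribosomal genes had -0.17 and the TOP genes -0.47, and the pseudogenes named after members -1.16.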

How the data were processed

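Bulk SMART-Seq v4 and Nextera XT libraries, 95 in all, were analysed from the raw counts per gene that the authors deposited. Per the submitters' processing notes, the tools were Trimmomatic 0.36, HISAT2 2.0.5, Picard and featureCounts, with GRCm38. Strand use, the handling of reads with several matches and the annotation release are not given in the sources used here. Groups came from the sample titles and every value column was mapped to a sample. An HSC and an HPC-1 library titled 10k were placed at 10 weeks, and HPC-2 replicate 1 of week 3, whose treatment label reads untreated, was kept at its title's week; leaving out these 3 doubtful labels was an alternative. Nothing in the labels says that libraries came from separate animals, so p-values measure the spread between these libraries, which may be technical.

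Counts were tested with the edgeR 4.0.16 quasi-likelihood test (TMM scaling, R 4.3.3) on genes kept by its filter on low counts. Transplant and weekly comparisons used the libraries of 1 population, steady-state comparisons the 23 steady-state libraries, and comparisons after transplant all 95 libraries with 27 groups. P-values were adjusted by Benjamini-Hochberg over all genes tested. DESeq2 1.42.0 and limma 3.58.1 (voom) were alternatives, beside other scalings, filters, covariates, blocks and libraries left out. The short-gene covariate and the steady-state fits that combine 2 choices were added after seeing the data. Near-identical pairs had a chi-square per degree of freedom under 5 over genes with a summed count of at least 10. Gene models came from GENCODE M21 and start sequences from RefSeq on GRCm38.p6. The fits were tested on simulated data.

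Members and gene lists were chosen with earlier results of these data known. Named in each comparison were the 4 called members with the smallest p in each direction, or the 2 with the smallest p where none was called, and members with fixed roles. Rpl4, Rpl13a, Rps9, Rps16 and the members of the combined fits were named after their values were seen. Some members that this rule names are not reported here.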

Additional observations from a re-analysis of the deposited data

Results flagged for a closer look

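Dixon's criterion for a library far from the others was applied in 57 cases. These were the share and single members in the steady-state sets of 7 or 8 libraries. It was met in 3 cases, where chance meets it in about 1 of 20. Cases share libraries and are not independent. Rpl4 stood at 2718 CPM in HSC steady-state replicate 3. Rpl22 stood at 931.4 CPM and Rpl3 at 1187 CPM in HPC-2 steady-state replicate 1, the library with the fewest detected genes.

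The members' share of counts moved in opposite directions at different weeks of 1 population, every library of a week lying on the same side of the steady-state mean. These differences between weeks were not tested. In HSC the share differed from the steady-state mean by -2.888 percentage points at 3 weeks and -1.398 at 4 weeks, but by 1.057 at 5 weeks, 1.152 at 8 weeks and 2.109 at 16 weeks. In HPC-2 it differed by 2.363 at 5 weeks, 2.102 at 6 weeks and 1.681 at 10 weeks, but by -1.362 at 13 weeks.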

How the results depend on the processing

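The direction of change was compared between settings for Rpl29 in HSC after transplant and for Rps27 and Rps4l in HSC against HPC-2 after transplant. It turned for none of them. For members called only in other settings or in single weeks the direction was not compared. Most counts of called members below are given without the share of all genes called in the same setting. They show how the calls move with the setting and are no result about the members. For HSC after transplant against steady state, where Rpl29 was called, 0 members were called with detected genes or the short-gene share as covariate, genes of at least 10 CPM, voom, no filter, a replicate block, scaling to all other genes, transplanted libraries as 1 group, and without low-detection or near-identical libraries. A block by description number, in which each week is set against 1 steady-state library of its population, gave 2. DESeq2, RLE scaling and scaling to the members gave 1, which was Rpl32l, lower. For HPC-1 and HPC-2 the filter left out gave 1 and 1, and for the HPC-2 slope 4. DESeq2 gave 4 for the HSC slope and 3 for the difference of HSC and HPC-2. At 3 weeks in HSC DESeq2 gave 21, voom 8, detected genes 3, low detection 13 and near-identical libraries left out 25. Voom gave 1 at 4 weeks, 27 at 5, 10 at 8 and 3 at 16 weeks in HSC, 2 in HPC-1 at 3 weeks and 1 in HPC-2 at 6 weeks, and DESeq2 gave 2 in HPC-1 at 3 weeks. The description block gave 1 in HSC at 5 and 1 at 16 weeks, and 10, 2 and 1 in HPC-2 at 3, 13 and 16 weeks. These calls rest on 1 steady-state library each, assumed to vary like the others, and include members nearly missing in it, such as Rpl36a in HPC-2 at 3 weeks. DESeq2 and low detection gave 1 each in HPC-2 at 16 weeks. At steady state, near-identical libraries left out gave 40 for HSC and 46 for HPC-1 against HPC-2, against 13.2 and 12.9% of all genes. With RLE scaling besides it was 25 and 22, against 12.5 and 11.9%. Detected genes as covariate gave 36 and 22, against 6.82 and 3.84%. Scaling to other genes gave 31 and 30, against 13.4 and 12.6%. Voom gave 4 for HSC against HPC-1. After transplant, HSC against HPC-1 gave 7 with DESeq2, 2 with voom, 1 with RLE scaling, 6 with scaling to the members, 6 with the short-gene share and 1 with low detection left out. HSC against HPC-2 (2 members) gave 12 with DESeq2, a smaller share than that of all genes called there. It gave 7 with voom, 1 each with detected genes, scaling to other genes, the short-gene share and low detection left out, and 0 without doubtful labels. The 1 with the short-gene share was Rpsa, lower. HPC-1 against HPC-2 gave 3 with DESeq2, 1 with scaling to the members and 3 with the short-gene share. Within sets the correlation of share and detected genes was -0.297 in transplanted HPC-1, 0.415 in steady-state and 0.496 in transplanted HPC-2, and -0.328 and -0.384 in HSC. The cause was not tested for any of these.

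Leaving out 1 library at a time gave 0 to 1 called members for the HSC and HPC-1 averages (1 in HPC-1 without replicate 3 of week 5), 0 to 4 for the HPC-2 slope (4 without replicate 3 of week 3) and 0 to 25 for HSC at 3 weeks, where HSC steady-state replicate 1 made the difference. At steady state it gave 0 to 5 for HSC and 0 to 13 for HPC-1 against HPC-2 with the near-identical libraries kept, and 27 to 51 and 26 to 63 with them left out. Shares moved within 6.50 to 7.27% (HSC), 6.78 to 7.42% (HPC-1) and 4.47 to 5.09% (HPC-2) at steady state. The fit of all 95 libraries was not repeated without each library, and the description block could not be estimated for the HPC-2 average. Replicate numbers were not taken as pairs, since not every same-numbered pair was over 0.1, a rule that cannot exclude a pairing. Over 32 same-numbered pairs of HSC and HPC-1 the correlation of deviations ran from -0.173 to 0.234, and 8 were over 0.1. Over the members alone their median was 0.254, against -0.130 for other numbers. For HSC with HPC-2 these medians were 0.148 and -0.013, and for HPC-1 with HPC-2 0.018 and -0.008. The comparisons between populations do not model such pairs. Between weeks of HPC-1, 31 of 108 same-numbered pairs were over 0.1, with a median over the members alone of 0.265, against -0.122 for other numbers, which the comparisons as designed do not model. A replicate block gave 0 members for the averages of HSC, HPC-1 and HPC-2. It also gave 0 for HSC against HPC-1 and for HPC-1 against HPC-2 after transplant.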

Other observations

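Libraries with the same replicate number had similar ranks of the members' share in the progenitor populations. In HPC-1, replicate 2 had the highest share in 8 of 8 weeks, with a mean of 7.51% ± 1.25 (SD, n = 8 weeks), and replicate 3 the lowest in 5 of 8, with 4.83% ± 1.10. In HPC-2, replicate 3 had the lowest share in 7 of 8 weeks, with 4.62% ± 1.52.

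Single members were nearly missing from HPC-2 libraries with few detected genes, steady-state replicate 1 with 3827 and replicate 6 with 6102. Other members were lower there too. Against replicate 1 alone, HPC-2 at 3 weeks was higher by 4.00 for Rps10 and by 2.39 for Rpl7a (log2 change). Against replicate 6 alone, HPC-2 at 13 weeks was higher by 2.22 for Rpl15. Rpl36a, an X-linked large-subunit gene, had 2 counts (0.37 CPM) in HPC-2 steady-state replicate 1, against 156.1 CPM in the next lowest library. Rpl39 had 27 counts (3.33 CPM) in HPC-2 steady-state replicate 6, against 76.7 CPM in the next lowest.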
